A study of Mus musculus with 6 samples.

Results

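Transcripts of 7 genes of the SLAM family (signalling lymphocytic activation molecules) were measured in cultured mouse Th17 cells, in 3 libraries of cells given desIgf1 and 3 of cells without it. The genes are the receptors Slamf1, Slamf6, Slamf7, Cd48, Cd84 and Ly9 and the adaptor Sh2d1a, 7 of the 39179 genes in each count file, matched by symbol. The family was picked by gene name after the contrast between these libraries was known, with the low Slamf6 value in view, so the contrast is given here as a description of the members. Naive CD4+ T cells (tissue label, spleen) came from C57BL/6 mice with 3 reporters, human CD2 at Il17a, Thy1.1 at Ifng and GFP at Foxp3, and both groups carried all 3. Both groups grew for 5 days on irradiated, CD4-depleted splenocytes, with 5 µg/mL anti-CD3, TGF-β at 2.5 ng/mL and IL-6 at 20 ng/mL, and with antibodies to Ifng and IL4 at 10 µg/mL each. The groups differed in desIgf1, a shortened insulin-like growth factor 1, at 30 ng/mL or absent. RNA was taken from sorted cells positive for the Il17a reporter and negative for the other reporters. The protocol text names desIgf1 for every library, so the groups rest on the titles and descriptions. The labels do not give separate cultures or animals for the libraries, and p-values therefore measure the spread between these libraries.

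SLAM receptors are immunoglobulin-like proteins of blood cells, and most of them bind their own kind on a neighbouring cell. The tails of most members carry tyrosine motifs to which the SH2 domain of SAP, the product of Sh2d1a, binds. SAP brings in the kinase Fyn, and without SAP the same motifs can recruit inhibitory phosphatases. In CD4+ T cells SAP and these receptors are known for durable contact with B cells and for help to germinal centres, and Slamf6 is also known as a costimulator of IL-17 production.

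Each library held 34567899 to 47929948 counts in genes. The cells carried their T cell label, since all 10 CD4 T cell markers were counted in every library and summed to 7260 to 7860 CPM (counts per 1000000, scaled with TMM factors) with desIgf1 and 6980 to 7200 CPM in controls. The 6 Th17 markers summed to 1860 to 2230 and 1360 to 1520 CPM. Libraries are numbered 1 to 3 in both groups by their titles. Both number 1 libraries held Xist counts (88639 and 77767) and almost no counts of the Y-linked Ddx3y (2 and 3), and the other 4 held the reverse. This is the pattern of female cells in number 1 and of male cells in the other 4, so the library number also carries sex.

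The 6 receptor genes lie on chromosome 1, in a cluster of 394 kb with Cd244a (171559193 to 171953170, GRCm38), while Sh2d1a lies on the X chromosome (42502453 to 42529330). Slamf6 and Cd84 are next to each other among the members, on the same strand and 26.8 kb apart, and Cd48 was the most abundant member per length. Their promoters are shown because Slamf6 lay lower, and Cd84 and Cd48 higher, in every desIgf1 library than in every control. Slamf7, at 0.115 to 3.06 CPM, also lay higher in every desIgf1 library, and its window is not printed. The windows hold 250 bases before and 50 after the RefSeq start (GRCm38.p6, plus strand, 5′ to 3′) at chr1:171917212-171917511 for Slamf6, chr1:171839447-171839746 for Cd84 and chr1:171681742-171682041 for Cd48, and capitals mark matches to the motifs named in the next paragraph.
Slamf6: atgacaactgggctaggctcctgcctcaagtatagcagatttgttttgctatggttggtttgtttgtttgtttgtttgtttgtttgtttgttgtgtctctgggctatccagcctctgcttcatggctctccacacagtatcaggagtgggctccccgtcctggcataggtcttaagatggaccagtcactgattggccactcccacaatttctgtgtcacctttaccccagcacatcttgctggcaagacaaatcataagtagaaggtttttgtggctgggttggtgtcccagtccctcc
Cd84: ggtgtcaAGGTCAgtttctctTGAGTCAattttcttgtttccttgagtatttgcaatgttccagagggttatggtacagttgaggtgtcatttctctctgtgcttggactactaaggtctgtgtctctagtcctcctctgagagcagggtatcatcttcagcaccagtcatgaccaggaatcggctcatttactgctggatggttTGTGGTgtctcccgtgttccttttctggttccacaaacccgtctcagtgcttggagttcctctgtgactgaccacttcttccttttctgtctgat
Cd48: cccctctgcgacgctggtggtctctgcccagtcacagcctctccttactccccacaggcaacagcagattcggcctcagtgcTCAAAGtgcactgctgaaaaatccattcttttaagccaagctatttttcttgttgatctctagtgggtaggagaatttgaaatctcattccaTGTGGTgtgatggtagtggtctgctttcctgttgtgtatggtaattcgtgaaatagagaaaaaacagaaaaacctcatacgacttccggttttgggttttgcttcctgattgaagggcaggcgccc

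RefSeq windows were at hand for 5 of the 7 members (Slamf1, Slamf6, Slamf7, Cd48 and Cd84). In these windows 6 motifs of factors active in T cells were searched on both strands, namely GTAAACA (FOXO), TTCNNNGAA (STAT), TGANTCA (AP-1), AGGTCA (RORE), CTTTGA (TCF/LEF) and TGTGGT (RUNX), and none of the matches found overlapped another. The Slamf6 and Slamf1 windows held 0 of the 6. Cd84 held AGGTCA at position -243, TGAGTCA at -229 and TGTGGT at -45, counted from the start site to the first base of the match. Cd48 held TCAAAG at -168, the reverse complement of CTTTGA, and TGTGGT at -76. Slamf7, on the minus strand, held TGACTCA at -42. Its window (171648950 to 171649249) lay inside the GENCODE span of the gene, 171632403 to 171653035. The Slamf6 window ended at 171917511, before the GENCODE start of Slamf6 at 171917515. For these genes the RefSeq and GENCODE starts therefore differ, and positions hold for the RefSeq starts only. Of 32544 windows of 300 bases in the mouse table, 3.66% held the FOXO letters, 8.33% STAT, 7.79% AP-1, 16.2% RORE, 16.0% TCF/LEF and 16.7% RUNX. The Slamf6 window also held 8 consecutive copies of TTTG, from -192 to -161, as did 2 of the 32544 windows on either strand, Slamf6 included. Its GC content was 48.3% with 1 CpG, against medians of 53.0% and 7 over all windows. The matches describe letters only.

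Slamf6, a receptor that binds itself on other lymphocytes, had the largest difference of the abundant members, with more of its transcript in every control than in any desIgf1 library. Slamf6 (ENSMUSG00000015314, chromosome 1, 171917515 to 171953170) measured 384, 392 and 314 CPM in controls 1 to 3, against 159, 137 and 178 CPM in the desIgf1 libraries of the same numbers. Every control lay above every desIgf1 library, so the groups did not overlap. The group means were 363 ± 42.9 (SD, n = 3) and 158 ± 20.4 CPM, a log2 fold change of -1.20 ± 0.14 (SE, 95% interval -1.52 to -0.89). Controls were therefore 2.30-fold above the treated libraries. In edgeR's quasi-likelihood test the adjusted p was 0.112 over 13846 genes, and 0.0512 with the library number as a block, so Slamf6 did not pass the threshold of 0.05 in either fit. It ranked 3 by p without the block and 51 with it. The difference was -1.27, -1.52 and -0.82 on the log2 scale in numbers 1, 2 and 3.

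**Figure D1:**
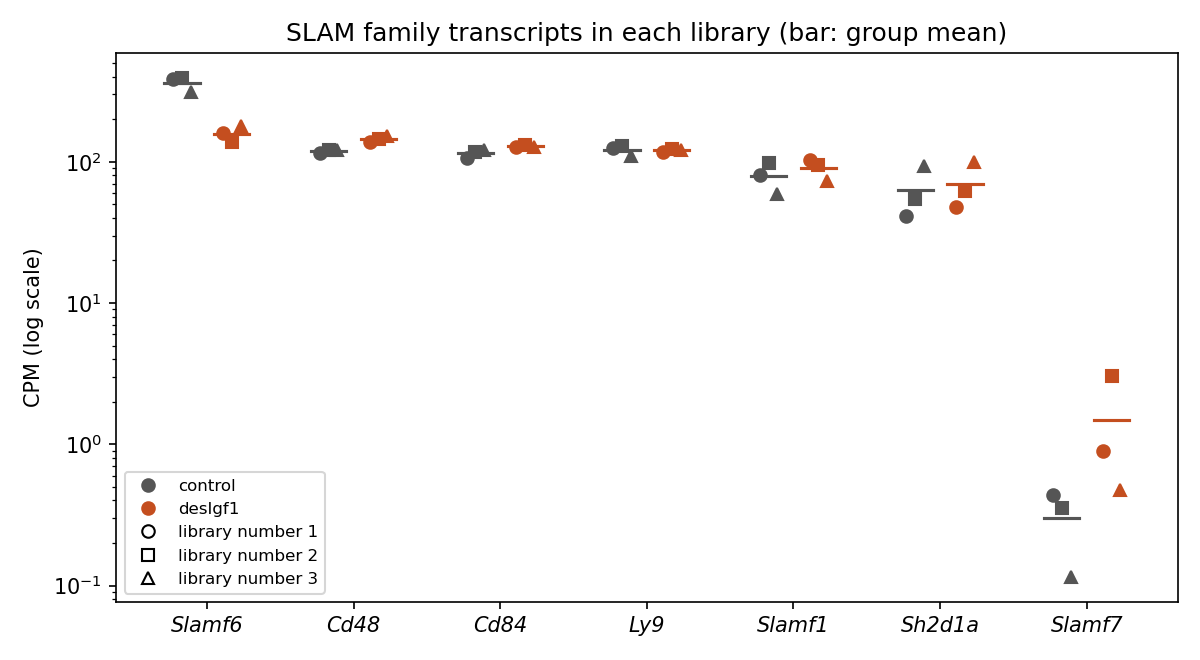
CPM (log axis) of the 7 SLAM family genes in each library, with grey for controls, orange for desIgf1, marker shapes for library numbers and a bar at each group mean. The Slamf6 controls sit between 314 and 392 CPM and the desIgf1 libraries between 137 and 178 CPM, while Slamf7 lies between 0.115 and 3.06 CPM.

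Without the block, 0% of all genes passed, and 0 of the 7 members did. With the block 0.318% of all genes passed, and again 0 of the 7 members. DESeq2 called 1.48% of genes, among them 1 member, Slamf6 (log2 -1.21, adjusted p = 3.35e-10). The tests therefore disagreed on Slamf6, while its size ran from -1.39 to -1.04 over 15 alternative fits. Of the members, 3 (Cd48, Cd84 and Slamf7) had all desIgf1 libraries above all controls, where 7.31% of genes did, and 1 (Slamf6) had them all below, where 6.18% of genes did. Since the contrast was known when the family was picked, nothing is read from these counts. The median log2 fold change of the 7 was 0.16, against -0.01 over all genes tested, and the median of absolute values was 0.18 against 0.17.

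Cd48 (chromosome 1, 171682009 to 171705258) encodes a receptor without a cytoplasmic tail that is anchored in the membrane by a lipid and binds CD2 and CD244. It was at 137, 146 and 152 CPM under desIgf1, against 116, 122 and 122 CPM in controls 1 to 3. Every desIgf1 library lay above every control, by a small step. The means were 145 ± 7.97 and 120 ± 3.26 CPM (SD, n = 3), a log2 fold change of 0.27 ± 0.09 (SE) with a 95% interval of 0.07 to 0.48 and an edgeR adjusted p of 0.507 (0.245 with the block). The 3 library numbers gave 0.23, 0.26 and 0.32 on the log2 scale.

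Cd84 (171839697 to 171890718), a self-binding receptor of T and B cell contacts, was at 128, 131 and 127 CPM under desIgf1, against 106, 118 and 122 CPM in controls 1 to 3. The treated libraries were close together and just above the highest control. The log2 fold change was 0.16 ± 0.09 (SE), with a 95% interval of -0.05 to 0.37 and an edgeR adjusted p of 0.649. Ly9 (171588624 to 171607410, minus strand), also a self-binding receptor, was at 117, 124 and 121 CPM under desIgf1, against 125, 129 and 109 CPM in controls 1 to 3. Its groups overlapped fully, with a log2 fold change of -0.01 ± 0.10 (SE), and the 95% interval of -0.23 to 0.22 does not reach the size seen for Slamf6. The interval for Cd84 does not reach it either.

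Slamf1 (171767127 to 171801184), a self-binding costimulator of T cells, was at 103, 95.2 and 72.5 CPM under desIgf1, against 80.7, 98.4 and 59.5 CPM in controls 1 to 3. The groups overlapped, and the lowest library of each was its number 3. The log2 fold change was 0.18 ± 0.21 (SE), with a 95% interval of -0.30 to 0.66 (edgeR adjusted p = 0.816). Sh2d1a, the gene of SAP, was at 48.1, 62.2 and 100 CPM under desIgf1, against 41.5, 54.9 and 93.6 CPM in controls 1 to 3. Its spread followed the library number, since the mean of both number 3 libraries was 1.88 times that of the other 4 and each number 1 library was the lowest of its group. The log2 fold change was 0.15 ± 0.36 without the block and 0.16 ± 0.09 with it (SE; edgeR adjusted p = 0.919 and 0.455), and the 3 numbers gave 0.21, 0.18 and 0.10. Number 3 libraries were thus high in Sh2d1a and low in Slamf1, at 0.699 of the mean of the others. The X-linked Sh2d1a was lowest in the pair of libraries with Xist counts, and the part of that difference between libraries in the Sh2d1a values was not tested.

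Slamf7 (171632403 to 171653035, minus strand), a receptor of natural killer cells, plasma cells and activated lymphocytes, was near the limit of counting. It had 36, 129 and 23 counts in desIgf1 libraries 1 to 3 and 20, 15 and 4 in controls 1 to 3, or 0.901, 3.06 and 0.475 against 0.438, 0.352 and 0.115 CPM. The lowest treated library and the highest control differed by 3 raw counts, and desIgf1 library 2 stood far above the rest. The log2 fold change was 2.26 ± 0.78 (SE), with an edgeR adjusted p of 0.530 (0.171 with the block). Without desIgf1 library 2 it was 1.15 (adjusted p = 1). The 7 NK cell markers summed to 7.55 to 13.1 CPM with desIgf1 and 9.38 to 13.3 CPM in controls. Of the defining pair, Ncr1 was at 0 in every library, as was Klra8 of the list, and Klrb1c was at 1.90 to 2.48 CPM. The 7 dendritic cell markers summed to 3.55 to 10.4 and 1.97 to 4.90 CPM, with Xcr1 and Siglech at 0 throughout and the defining markers Flt3 and Itgax at 0.175 to 0.868 and 0.261 to 0.848 CPM. The 4 plasma cell markers summed to 195 to 302 CPM with desIgf1 and 157 to 338 CPM in controls, nearly all of it Xbp1 (152 to 334 CPM). The other plasma cell markers were the defining Sdc1 and Jchain, at 0.992 to 2.29 and 0.095 to 0.401 CPM, and Prdm1, at 1.36 to 4.86 CPM. In desIgf1 library 2, where Slamf7 was highest, these sums were 7.55 CPM for NK cells, 3.75 CPM for dendritic cells and 295 CPM for plasma cells. Their part in the Slamf7 values was not tested.

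**Figure D2:**
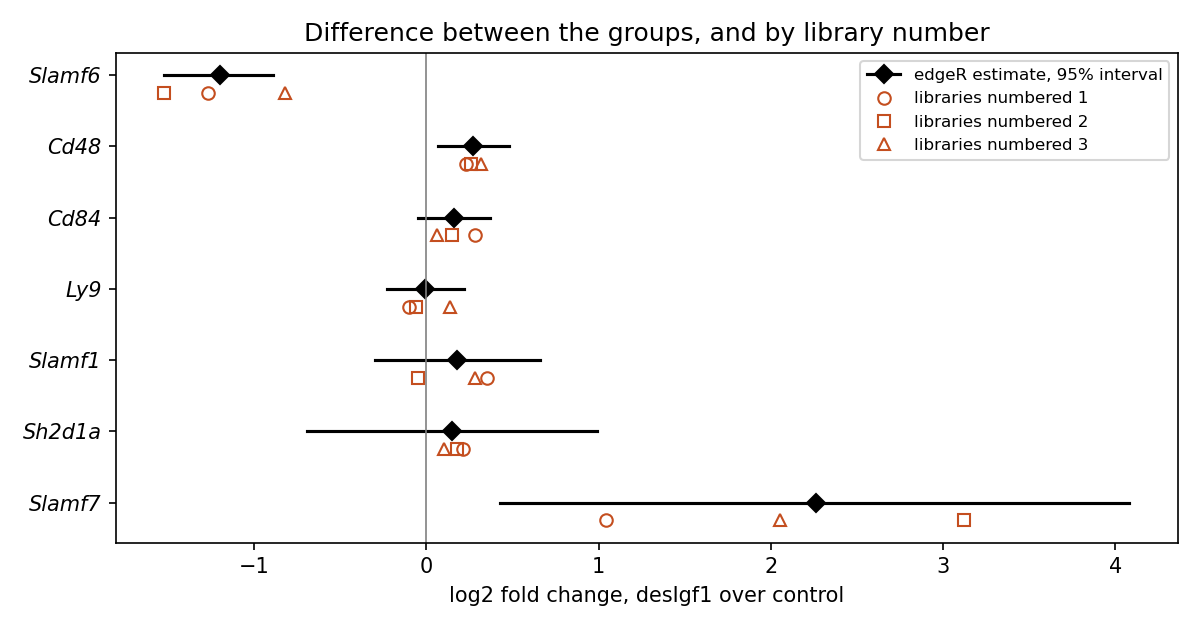
Log2 fold change of each member, desIgf1 over control. Diamonds and lines give the edgeR estimate without the block and its 95% interval, and open orange marks give the difference within each library number. All 3 marks of Slamf6 lie between -1.52 and -0.82, and those of Cd48 lie between 0.23 and 0.32.

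Slamf6 is also expressed by B cells, and irradiated splenocytes were present in the cultures. The 8 B cell markers summed to 57.0 to 97.8 CPM with desIgf1 and 69.3 to 175 CPM in controls, nearly all of it Ighm (55.6 to 96.0 and 67.6 to 171 CPM), and 6 of the 8 were counted in every library. The defining marker Cd79a was at 0.124 to 0.20 CPM with desIgf1 and at 0.219 to 0.430 CPM in controls, so it lay lower with desIgf1 and was near 0 throughout. The 7 markers of macrophages and monocytes summed to 10.0 to 14.7 CPM with desIgf1 and 4.18 to 12.4 CPM in controls, and Fcgr1 was at 0 throughout. Their defining markers Lyz2 and Csf1r were at most at 7.64 and 0.515 CPM. The part of these cells in the Slamf6 values was not tested. In bulk RNA, fewer cells with a transcript and less of it per cell cannot be told apart.

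Levels of different genes were compared as TPM (transcripts per 1000000), which divide counts by the merged length of a gene's exons. Cd48 came first in every library, at 473 ± 22.9 TPM with desIgf1 and 395 ± 10.1 TPM in controls (SD, n = 3), and stood at rank 309 of all genes by mean TPM, within the top 1.40% of genes with any count. Ly9 followed at 141 ± 3.57 and 143 ± 11.5 TPM. In controls Slamf6 was the third at 131 ± 15.2 TPM, below Ly9 by less than the sum of their SDs, and above Cd84 at 71.9 ± 5.04 TPM. With desIgf1 it was at 56.5 ± 7.15 TPM, below Cd84 at 79.6 ± 1.43 TPM, and not apart from Slamf1 (56.9 ± 10.4 TPM) or Sh2d1a (49.4 ± 18.6 TPM). In controls Slamf1 and Sh2d1a, at 50.5 ± 12.2 and 45.0 ± 19.3 TPM, did not differ beyond their spread either. Slamf7 was last in every library, at 0.0982 to 2.59 TPM.

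The order of Slamf6 and Ly9 in controls depended on the length used. Divided by the longest annotated transcript (5729 bases for Slamf6, against 10832 bases of merged exons), Slamf6 was at 186 TPM and Ly9 at 143 TPM in controls, and Slamf6 was second in all 3. With desIgf1, Slamf6 lay below Ly9 and Cd84 in every library under both lengths.

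**Figure D3:**
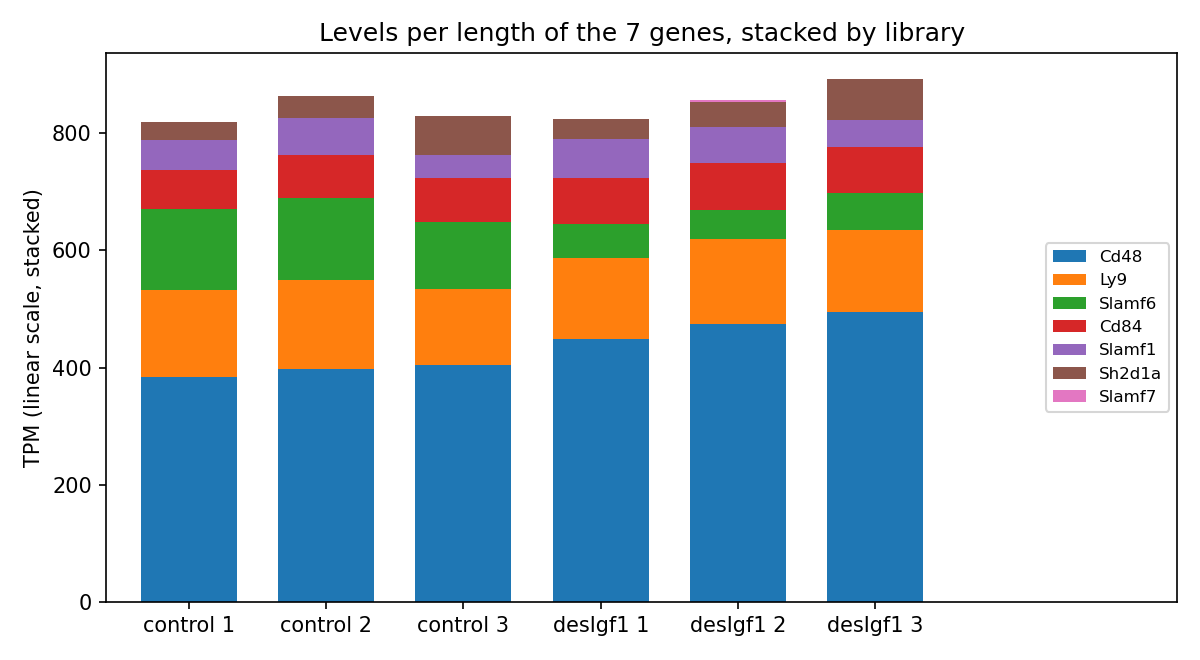
TPM of the 7 genes (linear axis from 0, stacked) in each library. The green block of Slamf6 is 114 to 141 TPM high in controls and 49.0 to 63.3 TPM high with desIgf1, while the whole stack runs from 819 to 892 TPM.

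The makeup of the family is given as a description, since it restates the Slamf6 value that was in view when the family was picked. Shares of a total also depend on each other, so a lower Slamf6 share raises those of the other genes. Slamf6 made up 13.7 to 17% of the summed TPM of the 7 genes in controls and 5.73 to 7.09% with desIgf1. Cd48 made up 46.0 to 48.7% and 54.4 to 55.5%. The summed TPM was 819 to 864 in controls and 824 to 892 with desIgf1, and these ranges overlapped. By counts, which weigh long transcripts more, Slamf6 alone held 45.0, 42.9 and 38.2% of the family in controls 1 to 3 and 22.9, 19.6 and 23.7% with desIgf1. The family summed to 821 to 914 CPM in controls and 693 to 751 CPM with desIgf1, so by CPM, unlike TPM, every desIgf1 library lay below every control. The other 6 genes summed to 470 to 521 CPM in controls and 534 to 573 CPM with desIgf1.

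The rest of the family was almost silent. Cd244a, the receptor 2B4 for CD48, had 0 to 4 counts per library, although the gene of Ly9 lies within its span on the opposite strand with 3823 to 5841 counts. Whether the counting used strand is not given in the sources used here. Slamf8 and Slamf9, receptors of myeloid cells, had 3 to 9 and 0 to 2 counts. The adaptor Sh2d1b2 had 0 counts in every library, and Sh2d1b1 was not analysed here. None of these reached the test.

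Slamf6 was compared with the genes around it, namely the 40 protein-coding genes other than the family between the ends of the cluster and 500 kb beyond them. Of these 28 were tested, 0 passed with or without the block, and their median log2 fold change was -0.03, with a median of absolute values of 0.09 against 0.17 over all genes. Vangl2, a planar cell polarity gene 47.8 kb beyond the end of Slamf6 and the nearest gene on that side, was at 2.75, 2.33 and 0.868 CPM under desIgf1, against 6.75, 6.47 and 1.15 CPM in controls 1 to 3. It was low in both number 3 libraries, so its groups overlapped, while each number gave a value below 0 (-1.29, -1.48 and -0.40). Its log2 fold change was -1.28 ± 0.68 (SE; edgeR adjusted p = 0.636, and 0.176 with the block). Gm10521, a predicted gene between Cd84 and Slamf6, was at 18.1 ± 2.28 and 15.0 ± 1.07 CPM (SD, n = 3; log2 0.27, adjusted p = 0.637). Sdhc (log2 -0.11) and Klhdc9 (0.83, at 0.117 to 1.02 CPM) had adjusted p-values of 0.735 and 0.741. Itln1, the nearest gene beyond Cd244a, had 0 to 1 counts.

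**Figure D4:**
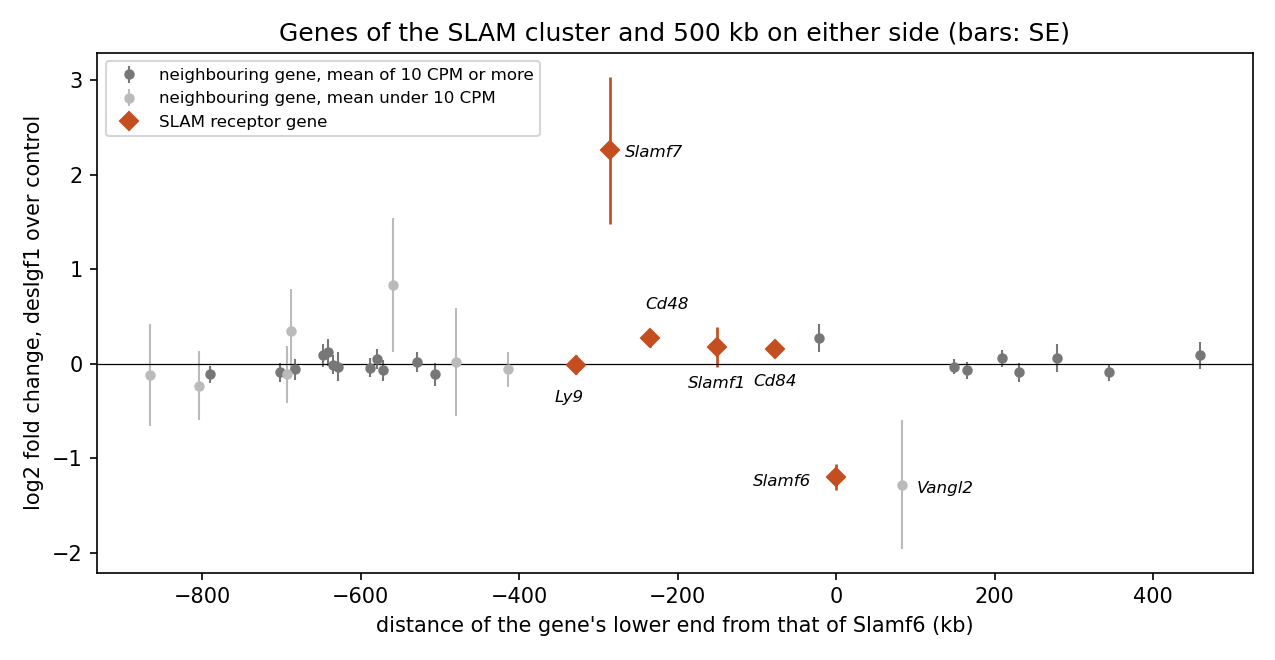
Log2 fold change (desIgf1 over control, with SE) of the tested genes of the cluster and its flanks, by distance from Slamf6 in kb. Orange diamonds are SLAM receptor genes and grey points are neighbours, darker at a mean of 10 CPM or more. Slamf6 at -1.20 lies well below the darker neighbours, and Vangl2 at -1.28 has a wide error bar.

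The genes with levels most like those of Slamf6 were found by the root mean square difference in centred log2 CPM over the 6 libraries, among 9002 other genes at a mean of 10 CPM or more. They were Trio, a guanine nucleotide exchange factor (0.184), Chst2, a sulfotransferase (0.187), Angptl2, a secreted angiopoietin-like protein (0.225), Snx9, a sorting nexin (0.242), and Mad1l1, a spindle checkpoint gene (0.258). Trio was at 33.9, 32.4 and 31.6 CPM under desIgf1, against 75.5, 63.3 and 55.7 CPM in controls 1 to 3. It did not pass without the block (log2 -0.99, edgeR adjusted p = 0.112), but with the block it fell by 0.98 (edgeR adjusted p = 0.0443). Chst2 was at 78.9, 48.7 and 85.0 CPM under desIgf1, against 164, 164 and 111 CPM in controls 1 to 3, and like Slamf6 it was lowest in desIgf1 library 2 and, among controls, in number 3. Of the members, Ly9 was nearest to Slamf6, with a difference of 0.61, at rank 3695. Cd84, Slamf1, Cd48 and Sh2d1a had differences of 0.71 to 0.85. The likeness is a description over libraries that also share their groups.

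**Figure D5:**
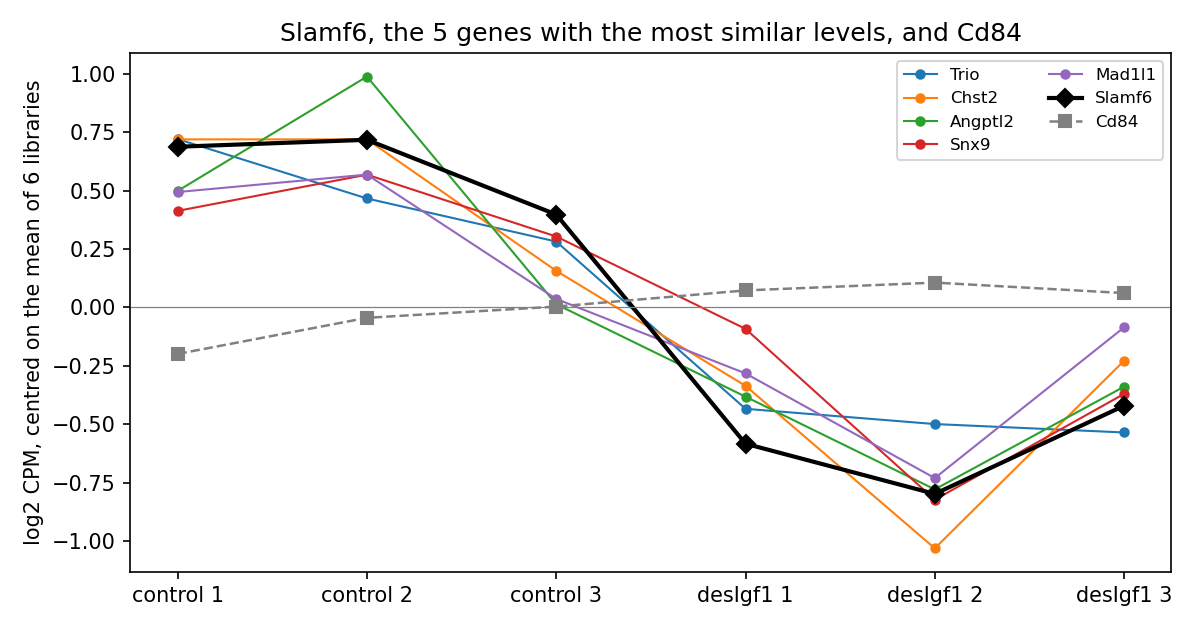
Log2 CPM of Slamf6 (black), the 5 genes nearest to it (colours) and Cd84 (grey, dashed) in each library, centred on each gene's mean. Each of the 5, picked for likeness to Slamf6 over these same libraries, has every control above every desIgf1 library. That restates the choice, and 6.18% of all genes tested lie the same way. Cd84 has the reverse at a smaller size.

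Genes that act below SLAM receptors differed little between the groups. The list held kinases, adaptors, phosphatases and other genes placed by known role below SAP and the receptor tails, and Cd2, the other partner of Cd48. Of 22 genes, all tested, 0 passed in either direction with or without the block. Their log2 fold changes ran from -0.18 to 0.31, with a median of -0.01, and 11 were above and 11 below 0. Fyn and Cd2 are given for their roles and were named after their values were seen. Fyn, the kinase that SAP recruits, was at 335, 331 and 423 CPM under desIgf1, against 336, 302 and 522 CPM in controls 1 to 3 (log2 -0.09, adjusted p = 0.918). Its groups overlapped, and number 3 was the highest in both. Cd2 was at 550 ± 88.2 and 532 ± 134 CPM (SD, n = 3; log2 0.05, adjusted p = 0.957).

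The smallest p-values of this list belonged to Pik3r1, Bcl10, Lcp2 and Rasa1. Pik3r1, the regulatory subunit of PI3-kinase, was at 152, 149 and 150 CPM under desIgf1, against 130, 103 and 131 CPM in controls 1 to 3 (log2 0.31, adjusted p = 0.561). Bcl10, which links PKC-θ to NF-κB, was at 97.9, 86.6 and 84.9 CPM against 79.5, 74.1 and 74.1 CPM (log2 0.24, adjusted p = 0.608). Both had every desIgf1 library above every control, as the only ones of the 22, against 7.31% of all genes tested. Since this list too was chosen with earlier results known, nothing is read from that count. Lcp2, the adaptor SLP-76, and Rasa1, a Ras GTPase-activating protein, had log2 fold changes of -0.18 and 0.18 (adjusted p = 0.677 and 0.688). The phosphatase genes Ptpn6, Ptpn11 and Inpp5d, also named after their values were seen, had log2 fold changes of -0.09, -0.16 and 0.04.

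Genes of T cell help, the function that SAP is known for, lay at a median of 0.31 (log2 fold change), and 0 of them passed edgeR's test. Of 14 listed genes 13 were tested, and Zbtb16 was too low. Of the 13, 0 passed with or without the block, 5 had all desIgf1 libraries above all controls and 1 had them all below, against 7.31% and 6.18% of all genes. Since the list was chosen with earlier results of these data known, nothing is read from these counts. The 5 were Cd40lg, Cxcr5, Il17a, Il17f and Maf, and the 1 was Il4, at 0.095 to 0.30 CPM with desIgf1 and 0.352 to 0.570 CPM in controls; Maf and Il4 were named after their values were seen. Cd40lg, the ligand by which helper T cells engage CD40, was at 102, 77.0 and 84.6 CPM under desIgf1, against 50.3, 51.4 and 47.2 CPM in controls 1 to 3. Every treated library was far above every control (log2 0.82 ± 0.13 SE, edgeR adjusted p = 0.170, and 0.0633 with the block). Cxcr5, the receptor for entry to B cell follicles, was at 13.0, 21.2 and 14.2 CPM under desIgf1, against 7.63, 4.90 and 12.9 CPM in controls 1 to 3 (log2 0.93 ± 0.36, adjusted p = 0.584). Il17a and Il17f, the cytokines by which the cells are known, had log2 fold changes of 0.68 and 0.61 (adjusted p = 0.441 and 0.452), and Il17a was also the gene whose reporter the sort used. DESeq2 called Cd40lg alone of both lists.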

How the data were processed

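The 6 libraries of bulk RNA from sorted Th17 cells were analysed, 3 per group. The authors deposited raw counts per Ensembl gene, with the summary lines that HTSeq writes. The submitters' processing notes list HTSeq 0.7.2, STAR 2.5.3, Trim Galore 0.4.5, R 3.4.3, DESeq2 1.18.1 and SAMtools 0.1.18, on GRCm38/mm10. Their roles, the annotation release and the strand setting are not given there. Reads in no gene were 13.5 to 15.7% of uniquely placed reads, and these and 4 other summary lines were left out. Symbols came from GENCODE M21, which held 37607 of the 39179 IDs, and promoters from RefSeq. The main test was edgeR 4.0.16 (R 4.3.3) with TMM, a filter at a minimum count of 10 that left 13846 genes, a robust quasi-likelihood fit with group as its only term, and Benjamini-Hochberg adjustment at 0.05. Alternatives were RLE factors, no filter, DESeq2 1.42.0, limma 3.58.1 voom, a fit that was not robust, the library number as a block, and each library or number left out. Deviations from group means correlated at 0.59, 0.32 and 0.55 between libraries of the same number. On this evidence of the data the number was used as a block in alternative fits. The main fit did not pair the libraries, so its SEs, intervals and p-values leave this pairing out. The script was tested on simulated data. Members and lists were chosen with earlier results of these data known. Genes were named where they were members, passed with or without the block, had the 4 smallest p of a list, or were the nearest neighbours or the 5 genes most like Slamf6. Same-number libraries are not described as one animal in the labels. The value of 1 marker gene is not reported here.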

Additional observations from a re-analysis of the deposited data

How the results depend on the processing

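Of 105 values for the 7 members, each under 15 alternatives, 92 kept their direction and their side of the threshold, 6 passed it and 7 changed sign. Slamf6 passed without the filter on low counts (log2 -1.20, adjusted p = 0.0108), with DESeq2 (-1.21, 3.35e-10), and with the block and without number 1 (-1.17, 0.0313), number 2 (-1.04, 5.27e-05) or number 3 (-1.39, 0.000582). Without any single library it ran from -1.32 to -1.11, with adjusted p from 0.0673 to 0.546. With the replicate block and all libraries, Slamf6 stayed at -1.20 (0.0512), Slamf7 was 2.09, Cd48 0.27, Cd84 0.16, Ly9 0.00, Slamf1 0.20 and Sh2d1a 0.16, and no member changed its call. Slamf7 passed with the block without number 3 (2.13, 0.0296), and ran from 1.15 to 2.65 without any single library.

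Ly9 turned from -0.01 to 0.01, 0.02 and 0.04 without desIgf1 library 1, control 1 or control 2, and to 0.04 and 0.02 with the block without number 1 or 2. Sh2d1a turned to -0.22 without desIgf1 library 3 and -0.08 without control 1. Without any single library, the ranges were 0.21 to 0.31 for Cd48, 0.10 to 0.20 for Cd84, -0.07 to 0.04 for Ly9, 0.01 to 0.36 for Slamf1 and -0.22 to 0.54 for Sh2d1a.

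Over all genes the count of calls was 0 of 13846 in the main test, 16 of 22504 without the filter, 208 of 14097 with DESeq2 and 44 of 13846 with the block. With the block it was 72 of 14024 without number 1, 620 of 14019 without number 2 and 1069 of 13987 without number 3. Of the 7 members, 1 was called without the filter, 1 with DESeq2, and 1, 1 and 2 with the block without number 1, 2 or 3. Of the 35 signalling and helper genes tested, DESeq2 called 1 (Cd40lg). The block called 3 without number 2 (Cd40lg, Il17a and Tcf7) and 5 without number 3 (Bcl6, Cd40lg, Cxcr5, Gata3 and Il17a). All of these are from the helper list. At an unadjusted p under 0.05, 1130 genes passed in the main test, and limma voom called 0. The cause of these differences was not tested.

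With the longest transcript as length, the share of the family's TPM was 9.77% with desIgf1 and 22.0% in controls for Slamf6, 43.3 and 35.2% for Cd48, 13.3 and 11.6% for Cd84, 8.96 and 8.01% for Sh2d1a and, with desIgf1, 17.2% for Ly9. Depth limits only Slamf7 among the members, with 4 to 129 counts per library.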
